A study of Mus musculus with 11 samples.

Results

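Axon guidance ligands and receptors were examined in isolated mouse glomeruli, the capillary tufts that filter blood in the kidney. The genes were taken by symbol from the deposited table: semaphorins, plexins, neuropilins, Slits, Robos, Eph receptors, ephrins, netrins and Unc5 receptors. The patterns matched 61 of the 13734 genes in the table, of which 32 encode ligands and 29 encode receptors. By family there were 18 semaphorins, 8 plexins, 2 neuropilins, 3 Slits, 4 Robos, 4 netrins, 4 Unc5 receptors, 4 ephrin-A and 3 ephrin-B ligands, and 6 EphA and 5 EphB receptors. Family members absent from the deposited table are not counted here. All 61 passed the filter on low counts, as did all 13734 genes of the table. The lowest count of any of the 61 in a library was 25 reads.

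The study compared 11 libraries in 3 groups of mice. The labels call all mice male. The db/db mice (BKS background) carry the db mutation of the leptin receptor on both chromosomes and become obese and diabetic. Of the libraries, 3 came from such mice given puerarin, an isoflavone glycoside of kudzu root. It was given at 20 mg per kg per day by gavage in 5% DMSO. Another 4 libraries came from db/db mice given the 5% DMSO vehicle, and 4 came from db/m littermates, the non-diabetic controls, given the same vehicle. Per the labels, db/db mice were purchased at 8 weeks of age and treated from 10 weeks of age for 6 weeks. The labels give the strain field as C57BL/6J, and whether animals were pooled for a library is not stated, so p-values measure only the spread between these samples, part of which may be technical. Libraries are named here by the number in their title, which is either an S number (db/db puerarin S144, db/db vehicle S152 and S153, db/m vehicle S184 and S185) or a group tag with a number (db/db puerarin 2 and 3, db/db vehicle 1 and 3, db/m vehicle 2 and 3).

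Guidance molecules are best known for steering growing axons, and the same families act in vessels and kidney. Secreted class 3 semaphorins signal through plexins with neuropilins as co-receptors, and neuropilins also bind vascular endothelial growth factors. Slits bind Robo receptors, and the netrin Ntn1 binds Dcc and Unc5 receptors. Ephrins are membrane-bound ligands of Eph receptor tyrosine kinases, which can signal into both of the cells in contact. Within the glomerulus, podocytes are known to make Sema3g, ephrin-B1 and Robo2, while Nrp1, Plxnd1, Robo4, Unc5b and Ephb4 are known from endothelium.

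Total counts ran from 35369703 to 44244460 per library, and guidance genes took 0.652% to 0.914% of them. Podocyte markers were measured for 30 of 30 listed genes, glomerular endothelial markers for 24 of 24 and mesangial markers for 18 of 19, and the summed podocyte level was 21421 to 31029 CPM (library-size-scaled counts with TMM factors). Tubule markers were also present: loop and distal tubule markers (15 of 15 measured) summed to 3285 to 11596 CPM in db/db puerarin, 6913 to 18371 CPM in db/db vehicle and 4487 to 13560 CPM in db/m vehicle. Of 12 Schwann cell and nerve markers, 3 were measured, with a summed level of 25.9 to 36.3 CPM over the 11 libraries. Although the labels call all mice male, Xist, expressed from an inactive X chromosome, was at 528 CPM in db/db puerarin 2 and 819 CPM in db/db puerarin 3, while the other 9 libraries had 0.519 to 6.47 CPM. The Y-linked gene Ddx3y was at 3.06 and 0.909 CPM in db/db puerarin 2 and 3, and at 50.3 to 85.2 CPM in the other 9. No vehicle library had this pattern, which is that of female mice. In both comparisons with puerarin, sex and treatment therefore cannot be told apart for db/db puerarin 2 and 3. Counts of genes with small p-values that rest on these libraries are therefore also given without them. In db/db vehicle 1, myeloid markers (23 of 23 measured) summed to 1934 CPM, against 219 to 545 CPM in the other libraries.

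Sema3g, a secreted class 3 semaphorin, stood above all other guidance genes. Per kilobase of the highest transcript, the scale on which genes can be compared with each other, its level was 553 CPM per kilobase as a mean of the 11 libraries (range 425 to 745). That was 3.84 times the next gene and 40.1% of the summed level of the 61 genes. The next was Nrp1, the neuropilin that binds class 3 semaphorins and vascular endothelial growth factor A, at 144.1 CPM per kilobase (75.7 to 233), and the ranges of Sema3g and Nrp1 did not overlap. In each library, Sema3g had 2561, 1789 and 1565 CPM in db/db puerarin S144, 2 and 3, then 2747, 2047, 1756 and 1678 CPM in db/db vehicle S152, S153, 1 and 3, and 2119, 2094, 2157 and 1908 CPM in db/m vehicle S184, S185, 2 and 3. The 3 groups overlapped, and the db/m libraries lay closest together (2069 ± 111 CPM, SD, n = 4).

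The next levels belonged to ligands. The podocyte ligand Efnb1 had 88.7 CPM per kilobase (66.9 to 101), the laminin-related secreted netrin Ntn4 had 72.1 (42.9 to 119), the membrane-anchored netrin Ntng2 had 51.2 (37.6 to 73.2) and Efnb2, the ligand of Ephb4, had 50.8 (24.8 to 80.3). From Nrp1 to Efnb2, each range overlapped with that of the next gene. Within every library, Nrp1 was nonetheless above Efnb1 (75.7 against 66.9 CPM per kilobase in db/db vehicle 3). The order of the later neighbours, from Efnb1 to Efnb2, changed between libraries. Among receptors, Plxnb2 followed Nrp1 at 32.9 CPM per kilobase (28.3 to 37.6), then Ephb4 at 30.9 (22.9 to 38.0), Plxnb1 at 22.9, Robo2 at 20.3, Plxnd1 at 19.7 and Unc5b at 15.4. The remaining ligands above 10 CPM per kilobase were Sema5a at 29.6, Sema3f at 28.9, Sema7a at 27.9, Efna1 at 23.8, Sema3b at 18.5 and Sema3e at 16.99. In all, 18 of the 61 genes reached 10 CPM per kilobase, 35 lay between 1 and 10, and 8 lay under 1 (Epha6, Robo3, Efna5, Slit1, Ephb2, Sema3d, Ntng1 and Unc5d).

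Families differed in where they sat on this scale. Semaphorins held 52.3% of the summed level, neuropilins 10.8%, ephrin-B ligands 10.2%, netrins 9.12% and plexins 6.80%. Slits held 0.367%: Slit3 led at 2.30 CPM per kilobase and Slit2 followed at 2.25, with ranges that overlapped (1.57 to 3.43 and 0.581 to 4.10), while their receptor Robo2 was at 20.3 (14.3 to 26.8), above the range of both. EphA receptors held 1.29%, with Epha2 the highest at 9.05 CPM per kilobase (6.09 to 11.8). Members also varied unequally between libraries. The coefficient of variation over the 11 libraries had a median of 23.7%, from 6.42% for Sema3b to 53.2% for the low-level ligand Efna3.

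**Figure D1:**
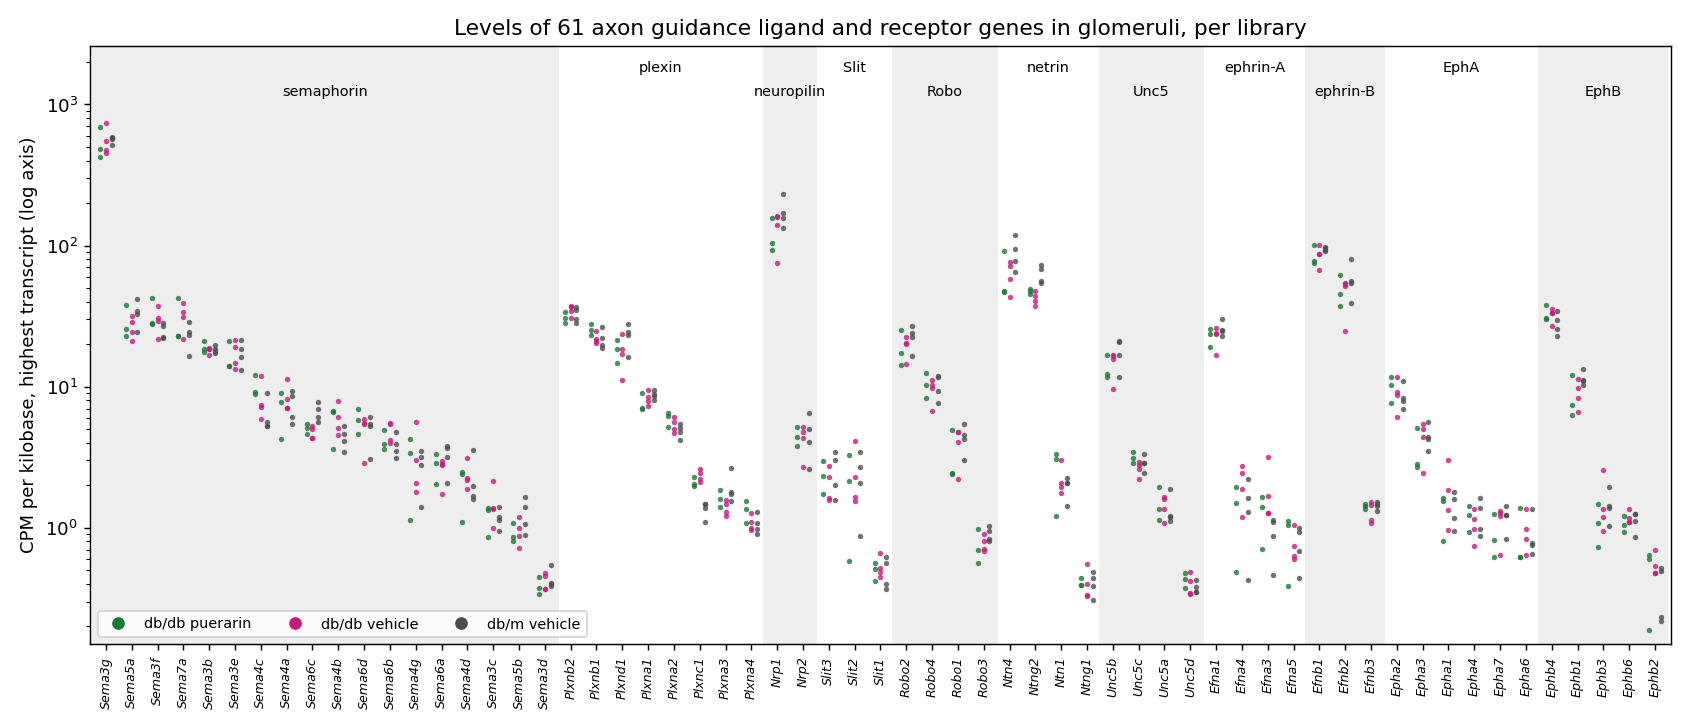
Level of each of the 61 guidance genes in CPM per kilobase of its highest transcript (log axis), 1 point per library, ordered within families by mean level, with db/db puerarin left of db/db vehicle and db/m vehicle. Sema3g lies between 425 and 745 CPM per kilobase in all 11 libraries, above every value of the other genes.

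The first comparison asked what differed in vehicle-treated db/db glomeruli relative to db/m glomeruli. The receptor Plxnc1 and the ligand Efna3 were higher in every db/db vehicle library than in any db/m library, and the ligands Ntng2 and Sema6c were lower in every one, but the test left all of these short of the threshold. With edgeR's quasi-likelihood test and Benjamini-Hochberg adjustment over all genes, 0 of 61 guidance genes passed an adjusted p of 0.05, where 0.0437% of all 13734 genes did. At an unadjusted p under 0.05 there were 10 guidance genes (16.4%), against 10.3% of all genes, and without db/db vehicle 1 there were 17, against 14.9% of all genes. Limma-voom called 0 guidance genes, against 0.0582% of all genes, while DESeq2 called 5, against 2.11% of all genes. The fitted log2 fold changes of the 61 genes were balanced, with 29 above 0 and 32 below (53.5% and 46.5% of all genes) and a median of -0.01, against 0.02 over all genes. In bulk tissue such as this, fewer cells of a type and less RNA per cell cannot be told apart.

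The smallest p-value belonged to the receptor Plxnc1, the plexin that binds Sema7a. It had 15.5, 17.1, 14.96 and 18.5 CPM in db/db vehicle S152, S153, 1 and 3, against 10.3, 7.77, 9.76 and 10.4 CPM in db/m vehicle S184, S185, 2 and 3. All db/db vehicle libraries were above all db/m libraries. The log2 fold change was 0.79 ± 0.12 (SE), with an adjusted p of 0.0647 (edgeR), which ranged from 1.2e-05 to 0.655 over the alternatives. The difference in log2 mean CPM was 0.72 among group-tag libraries and 0.86 among S-number libraries. Leaving out db/db vehicle 1, where myeloid markers were highest, the log2 fold change was 0.85 and the adjusted p 0.0304 (edgeR). Over all libraries, 23 of 23 myeloid markers had log2 fold changes above 0 in this comparison (median 1.03), against 53.5% of all genes. Among S-number libraries they summed to 379 and 378 CPM in db/db vehicle S152 and S153, against 414 and 493 CPM in db/m vehicle S184 and S185. Among group-tag libraries they summed to 1934 and 545 CPM in db/db vehicle 1 and 3, against 219 and 293 CPM in db/m vehicle 2 and 3. Their part in the Plxnc1 result was not tested. The Plxnc1 ligand Sema7a had 102, 129, 110 and 71.3 CPM in db/db vehicle S152, S153, 1 and 3, against 53.7, 76.5, 79.6 and 94.1 CPM in db/m vehicle S184, S185, 2 and 3. These groups overlapped, and the log2 fold change of Sema7a was 0.41 ± 0.25 (edgeR, adjusted p = 0.62).

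For 2 ligands all db/db vehicle libraries were below all db/m libraries. Ntng2 had 269, 230, 251 and 214 CPM in db/db vehicle S152, S153, 1 and 3, against 311, 320, 419 and 393 CPM in db/m vehicle S184, S185, 2 and 3 (log2 fold change -0.57 ± 0.11, edgeR adjusted p = 0.121). Sema6c, a transmembrane semaphorin, had 104, 84.2, 99.0 and 85.1 CPM in db/db vehicle, against 124, 113, 137 and 155 CPM in db/m vehicle, in the same order of libraries (-0.50 ± 0.11, edgeR adjusted p = 0.155). For both genes the lowest db/m library was an S-number library, and the differences in log2 mean CPM were larger among group-tag libraries (-0.81 for Ntng2 and -0.67 for Sema6c) than among S-number libraries (-0.34 for each). That difference between name forms was tested as an interaction in edgeR, and 0 of 61 guidance genes passed. At an unadjusted p under 0.05 there were 2 (3.28%), against 3.19% of all genes, and these were Ephb2 (log2 interaction -0.88) and Ntng2 (-0.47, edgeR adjusted p = 0.9998 for both). Ntn4 had 184.02, 173, 140 and 103 CPM in db/db vehicle S152, S153, 1 and 3, against 230, 288, 157 and 186 CPM in db/m vehicle S184, S185, 2 and 3 (-0.51 ± 0.13, edgeR adjusted p = 0.182). Its groups overlapped over all libraries, but the db/db vehicle libraries were lower within each name form.

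Efna3, a membrane-anchored ligand of EphA receptors, had the largest fitted difference of the 61 genes. It had 1.56, 1.56, 2.06 and 3.89 CPM in db/db vehicle S152, S153, 1 and 3, against 1.07, 0.565, 1.38 and 1.34 CPM in db/m vehicle S184, S185, 2 and 3 (log2 fold change 1.03 ± 0.26, edgeR adjusted p = 0.188). The groups did not overlap, and the highest value came from db/db vehicle 3, which also had the highest loop and distal tubule level, 18371 CPM summed. The part of that level in the result was not tested. With a tubule level, the mean of the proximal, loop and distal, and collecting duct lists, as a further term, the log2 fold change of Efna3 was 0.84. An antisense gene overlaps 344 of the 2434 exon bases of Efna3, and the sources used here do not state whether counting used strand. Of the other genes that lead this comparison, Ntng2 shares 558 of 3990 exon bases and Plxnc1 115 of 8349 with an annotated non-coding gene on the same strand, and Sema6c and Ntn4 share none. In all, 4 guidance genes (6.56%) had groups that did not overlap, Plxnc1 and Efna3 higher and Ntng2 and Sema6c lower, against 4.96% of all genes.

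The other genes at an unadjusted p under 0.05 overlapped between groups. The transmembrane ligand Sema4b had 17.8, 20.1, 24.0 and 31.2 CPM in db/db vehicle S152, S153, 1 and 3, against 16.4, 13.6, 18.2 and 20.6 CPM in db/m vehicle S184, S185, 2 and 3 (log2 fold change 0.42, edgeR adjusted p = 0.279). The receptor Ephb2 had 10.5, 10.4, 11.7 and 14.9 CPM in db/db vehicle, against 4.93, 4.59, 11.5 and 10.8 CPM in db/m vehicle, in the same order (0.73, edgeR adjusted p = 0.299). For Ephb2 the difference in log2 mean CPM was 0.25 among group-tag libraries and 1.14 among S-number libraries. The plexin Plxna3 averaged 9.63 ± 1.14 CPM in db/db vehicle and 13.4 ± 3.46 CPM in db/m vehicle (SD, n = 4 each, edgeR adjusted p = 0.362). The receptor Ephb1 averaged 83.0 ± 18.5 CPM in db/db vehicle and 105 ± 12.6 CPM in db/m vehicle (edgeR adjusted p = 0.398), and Sema5b, a semaphorin with thrombospondin repeats, averaged 4.31 ± 0.92 CPM in db/db vehicle and 5.70 ± 1.54 CPM in db/m vehicle (edgeR adjusted p = 0.471).

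The most abundant member of each family did not pass the test either. Nrp1 had 964, 826, 951 and 448 CPM in db/db vehicle S152, S153, 1 and 3, against 1006, 1380, 792 and 923 CPM in db/m vehicle S184, S185, 2 and 3 (log2 fold change -0.35 ± 0.21, edgeR adjusted p = 0.611). The lowest value was again in db/db vehicle 3, which also had the lowest summed glomerular endothelial level of the 11 libraries (8874 CPM, against 10802 to 17701 CPM in the others), and the part of that level in the result was not tested. Sema3g differed by -0.04 ± 0.13 on the log2 scale and Plxnb2 by 0.11 ± 0.09. Robo2 differed by -0.21 ± 0.16, Unc5b by -0.25 ± 0.15 and Efnb1 by -0.16 ± 0.11. Slit3 differed by -0.27 ± 0.20, Epha2 by 0.07 ± 0.21, Ephb4 by 0.20 ± 0.14 and Efna1 by -0.20 ± 0.15, and the adjusted p of these 9 was 0.632 or higher (edgeR).

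By family, the direction was uniform only in small families whose members did not pass the test: 4 of 4 Robos, 3 of 3 ephrin-B ligands and 2 of 2 neuropilins had log2 fold changes below 0, with medians of -0.17, -0.16 and -0.19. Podocyte markers lay on the same side: 24 of 30 were below 0, against 46.5% of all genes, with a median of -0.18. Of these markers 10 were lower at an unadjusted p under 0.05, against 663 of all 13734 genes. In the edgeR test 1 passed as lower, against 6 of all genes. Glomerular endothelial markers were divided, 11 above 0 and 13 below (median -0.06), and so were mesangial markers, 9 and 9 (median -0.01). The part of these markers in the result was not tested. The summed podocyte level was 21421 to 27733 CPM in db/db vehicle and 25197 to 31029 CPM in db/m vehicle. Semaphorins were divided, 9 above 0 and 9 below (median 0.02), and plexins had 5 above and 3 below (median 0.03). Netrins had 3 of 4 below 0 (median -0.26), and ephrin-A ligands had 3 of 4 above 0 (median 0.33).

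**Figure D2:**
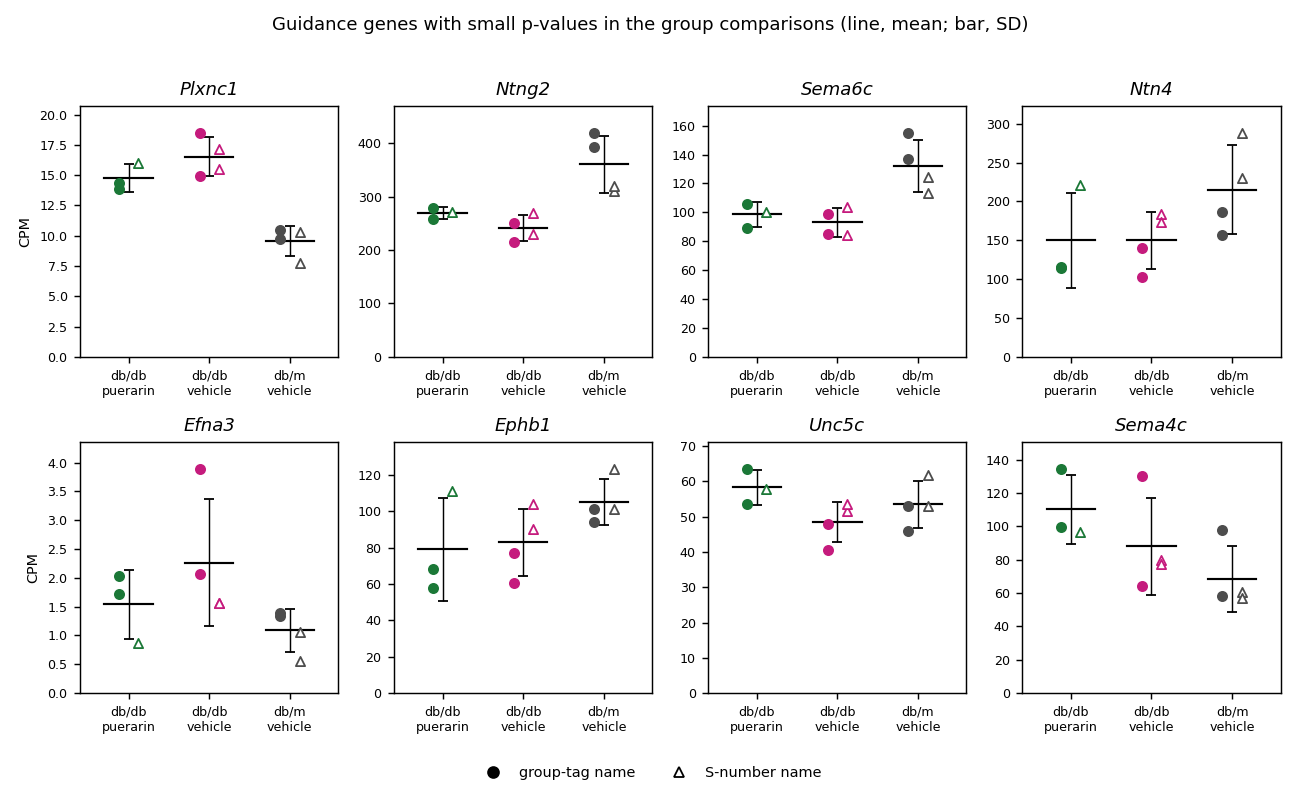
CPM of 8 guidance genes with small p-values in the group comparisons, each panel with its own linear axis from 0, db/db puerarin and db/db vehicle left of db/m vehicle, circles for group-tag and triangles for S-number libraries, with a line for the mean and a bar for the SD. In the panels of Ntng2 and Sema6c, the 7 db/db libraries lie below the 4 db/m libraries, and in the panel of Plxnc1 they lie above them.

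The second comparison asked what differed between puerarin-treated and vehicle-treated db/db glomeruli. It shares the db/db vehicle libraries with the first. With edgeR, 0 of 61 guidance genes passed, and so did 0% of all genes, with the smallest adjusted p of a guidance gene at 0.967. At an unadjusted p under 0.05 there were 4 guidance genes (6.56%), against 4.21% of all genes, and DESeq2 and limma-voom each called 0, against 0.109% and 0% of all genes. With the tubule level as a further term that 4 became 8 (8.88% of all genes). It became 10 when db/db vehicle 1 was left out (8.05% of all genes) and 1 when db/db vehicle 3 was (3.31%). Without db/db puerarin 2 and 3, which leaves 1 puerarin library assumed to vary like the other groups, 0 passed as well and 6 were at an unadjusted p under 0.05, against 5.53% of all genes. The log2 fold changes of 31 genes were above 0 and of 30 below (44.7% and 55.3% of all genes), with a median of 0.01 (0.16 without db/db puerarin 2 and 3), against -0.02 over all genes.

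Unc5c, a netrin receptor that mediates repulsion, was the gene with the smallest p among those higher with puerarin. It had 57.7, 53.7 and 63.4 CPM in db/db puerarin S144, 2 and 3, against 51.5, 53.5, 47.8 and 40.6 CPM in db/db vehicle S152, S153, 1 and 3 (log2 fold change 0.30 ± 0.11, unadjusted p = 0.02, edgeR). The groups did not overlap, though the nearest libraries, db/db puerarin 2 and db/db vehicle S153, were at 53.7 and 53.5 CPM, and Unc5c was the only guidance gene of which this was true (1.64%, against 3.23% of all genes). Without db/db puerarin 2 and 3 the log2 fold change was 0.16. The db/m libraries, at 53.1, 61.9, 53.1 and 45.8 CPM, spanned most of both groups. Plxna4, a receptor of class 3 and class 6 semaphorins, had 19.4, 13.7 and 17.1 CPM in db/db puerarin, against 16.0, 12.1, 13.9 and 12.5 CPM in db/db vehicle, in the same order (0.33 ± 0.14).

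The genes lower at an unadjusted p under 0.05 were a pair of low-level ephrin-A ligands. Efna4 had 0.781, 2.38 and 3.12 CPM in db/db puerarin S144, 2 and 3, against 1.89, 3.01, 3.90 and 4.40 CPM in db/db vehicle S152, S153, 1 and 3 (log2 fold change -0.97 ± 0.38, edgeR). Efna3 had 0.873, 2.04 and 1.71 CPM in db/db puerarin, against 1.56, 1.56, 2.06 and 3.89 CPM in db/db vehicle, in the same order (-0.71 ± 0.28). For both, the lowest library was db/db puerarin S144 and the highest db/db vehicle 3. These are also the libraries with the lowest and the highest loop and distal tubule level, 3285 and 18371 CPM summed. With the tubule level (the mean of 3 tubule lists) as a further term, the log2 fold change was -0.72 for Efna4 and -0.42 for Efna3. The part of the loop and distal level itself was not tested. Without db/db puerarin 2 and 3, that of Efna4 was -1.53, and without db/db vehicle 3, that of Efna3 was -0.46. Within the ephrin-A family 3 of 4 genes were below 0 (median -0.38), and ephrin-B ligands and netrins were all above 0 (medians 0.13 and 0.08), none of them past the test.

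The third comparison set puerarin-treated db/db glomeruli against db/m glomeruli and shares the db/m libraries with the first. With edgeR, 0 of 61 guidance genes passed, against 0.182% of all genes. DESeq2 called 1 (Plxnc1), against 2.16% of all genes, and limma-voom called 0, against 0.109% of all genes. At an unadjusted p under 0.05 there were 9 guidance genes (14.8%), against 10.3% of all genes. The median log2 fold change was -0.10, against -0.01 over all genes, with 25 genes above 0 and 36 below (47.7% and 52.3% of all genes). That median was -0.03 without db/db puerarin 2, -0.01 without db/db puerarin 2 and 3, and 0.01 with S-number libraries alone. Without db/db puerarin 2 and 3 the count past the adjusted threshold was again 0, and 5 were at an unadjusted p under 0.05, against 6.52% of all genes.

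Plxnc1, Ntng2, Sema6c and Ntn4 led this comparison too. Plxnc1 had 16.0, 13.9 and 14.3 CPM in db/db puerarin S144, 2 and 3, above the 7.77 to 10.4 CPM in db/m vehicle (log2 fold change 0.62 ± 0.13, edgeR adjusted p = 0.121). Ntng2 had 271, 279 and 258 CPM, below the 311 to 419 CPM in db/m vehicle (-0.43 ± 0.12, edgeR adjusted p = 0.238). Sema6c had 101, 106 and 89.4 CPM, below the 113 to 155 CPM in db/m vehicle (-0.43 ± 0.12, edgeR adjusted p = 0.246). These 3 genes were the only guidance genes whose groups did not overlap here (4.92%, against 7.65% of all genes). Between db/db puerarin and db/db vehicle, the same genes differed by -0.17 ± 0.13, 0.14 ± 0.12 and 0.07 ± 0.12 on the log2 scale (edgeR adjusted p = 0.967, 0.967 and 0.976). Taking all 7 db/db libraries against the 4 db/m libraries, Plxnc1 was higher without overlap, as were 1.23% of all genes, and Ntng2 and Sema6c were lower without overlap, as were 1.16% of all genes.

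Ntn4 had 221, 114 and 116 CPM in db/db puerarin S144, 2 and 3, against 230, 288, 157 and 186 CPM in db/m vehicle S184, S185, 2 and 3 (log2 fold change -0.44 ± 0.14, edgeR adjusted p = 0.279). The overlap came from S144, an S-number library that lay above the group-tag db/m libraries. Ephb1 had 111, 68.5 and 57.7 CPM in db/db puerarin, against 101, 123, 101 and 94.4 CPM in db/m vehicle, in the same order (-0.38 ± 0.15, edgeR adjusted p = 0.417). Here S144 lay within the db/m range, and with S-number libraries alone the log2 fold change was 0.0045, so the difference rests on db/db puerarin 2 and 3.

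The genes higher in db/db puerarin at an unadjusted p under 0.05 besides Plxnc1 were 2 ligands and 2 receptors. Sema4c, a ligand of Plxnb2, had 96.8, 134 and 99.3 CPM in db/db puerarin S144, 2 and 3, against 60.7, 57.0, 58.4 and 97.9 CPM in db/m vehicle S184, S185, 2 and 3 (log2 fold change 0.64 ± 0.23, edgeR adjusted p = 0.371). The groups overlapped through db/m vehicle 3 alone. Sema3f, a secreted ligand that binds Nrp2, averaged 221 ± 55.9 CPM in db/db puerarin (n = 3) and 169 ± 22.0 CPM in db/m vehicle (SD, n = 4, edgeR adjusted p = 0.435). Plxna4 averaged 16.8 ± 2.88 CPM in db/db puerarin and 13.4 ± 2.14 CPM in db/m vehicle (edgeR adjusted p = 0.403), and Plxna2 averaged 65.7 ± 7.42 CPM in db/db puerarin and 53.9 ± 5.69 CPM in db/m vehicle (edgeR adjusted p = 0.466).

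**Figure D3:**
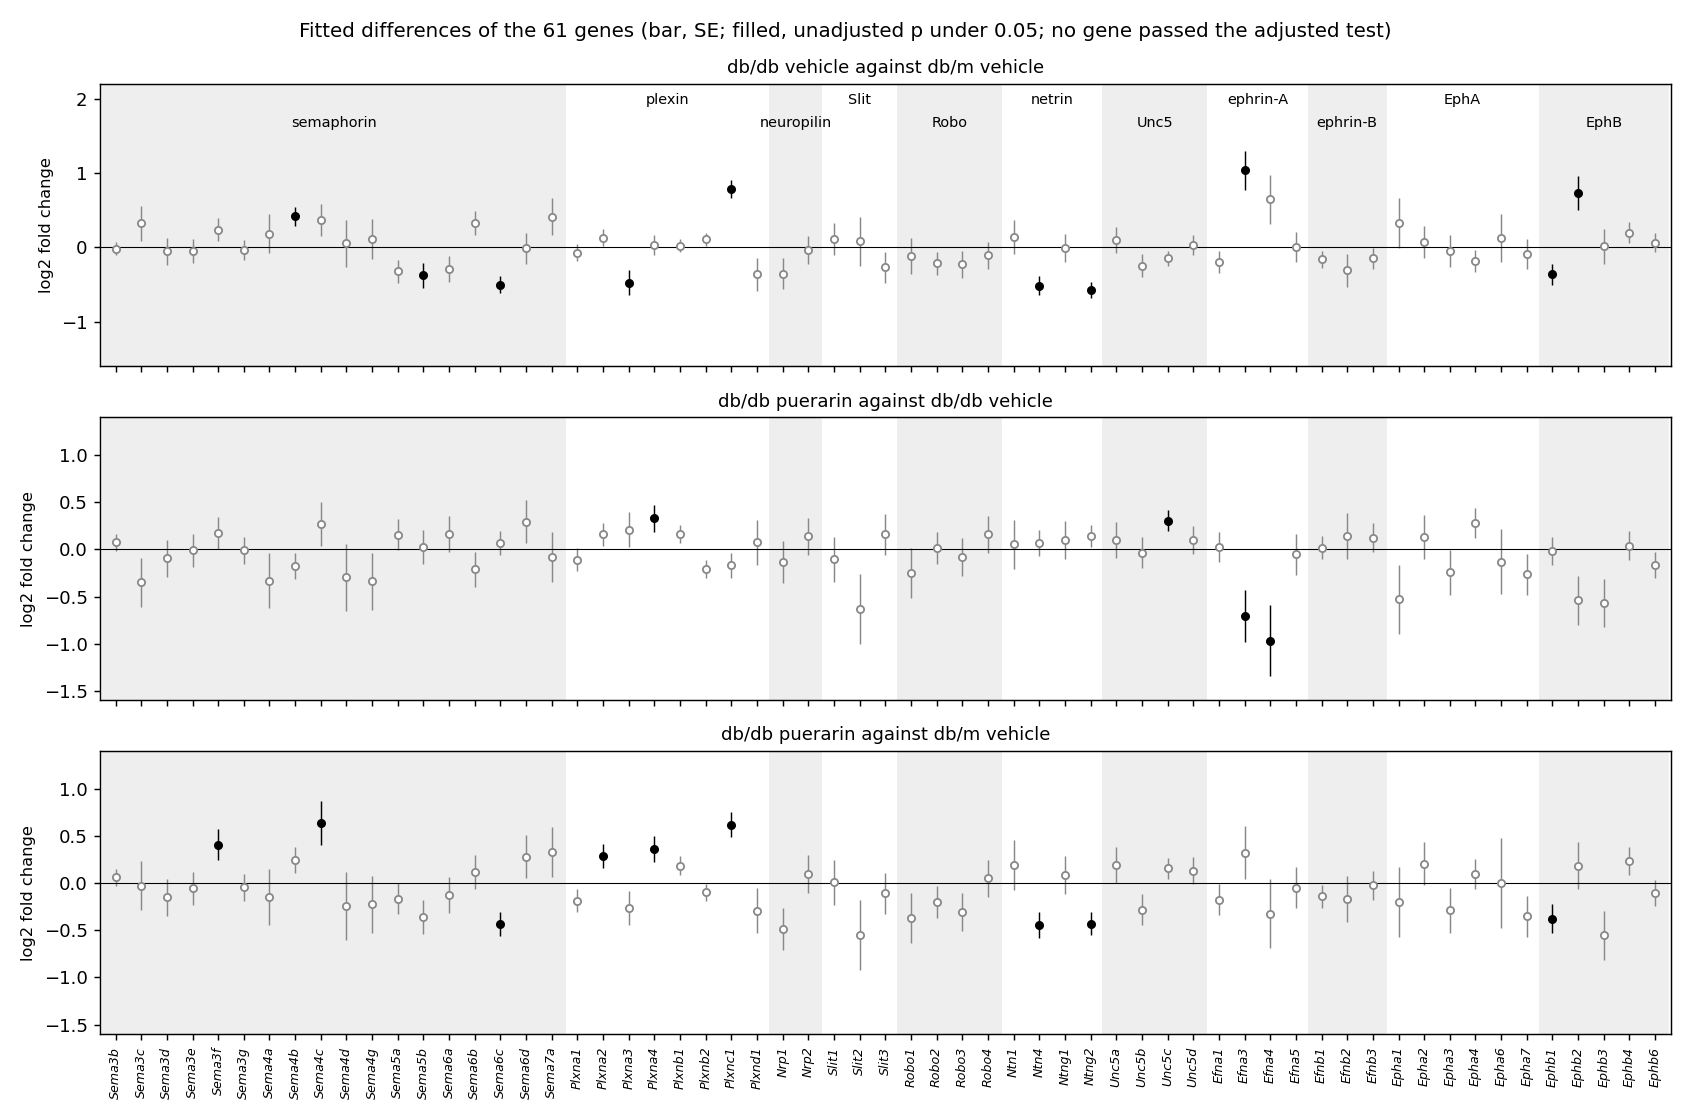
Fitted log2 fold change of each of the 61 guidance genes in the 3 group comparisons, from top to bottom db/db vehicle against db/m vehicle, db/db puerarin against db/db vehicle and db/db puerarin against db/m vehicle, with a bar for the SE and filled points for an unadjusted p under 0.05. The filled points number 10, 4 and 9 from top to bottom, and none of the 61 genes passed the adjusted test in any panel.

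The promoters of Plxnc1, Ntng2 and Sema6c, whose levels separated all db/db from all db/m libraries, and of Sema3g, the most abundant gene, are shown because these 4 genes carry the description above. Each is the 250 bases before the RefSeq start site (build GRCm38.p6), written 5′ to 3′ on the strand of the gene, with capitals for the GC box GGGCGG on either strand.
Sema3g: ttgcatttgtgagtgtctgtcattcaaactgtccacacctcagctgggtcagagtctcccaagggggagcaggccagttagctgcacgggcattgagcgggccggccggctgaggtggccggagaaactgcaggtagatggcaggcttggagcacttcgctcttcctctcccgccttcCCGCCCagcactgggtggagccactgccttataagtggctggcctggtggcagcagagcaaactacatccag
Plxnc1: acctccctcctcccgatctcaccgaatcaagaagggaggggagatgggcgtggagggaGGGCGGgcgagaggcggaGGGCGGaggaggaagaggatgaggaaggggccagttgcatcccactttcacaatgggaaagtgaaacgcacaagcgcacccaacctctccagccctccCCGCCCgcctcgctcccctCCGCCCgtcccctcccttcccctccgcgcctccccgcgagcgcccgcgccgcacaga
Ntng2: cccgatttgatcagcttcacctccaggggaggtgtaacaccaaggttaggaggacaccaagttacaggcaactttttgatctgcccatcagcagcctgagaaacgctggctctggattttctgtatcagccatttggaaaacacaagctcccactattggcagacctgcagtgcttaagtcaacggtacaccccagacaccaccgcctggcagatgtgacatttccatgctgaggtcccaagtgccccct
Sema6c: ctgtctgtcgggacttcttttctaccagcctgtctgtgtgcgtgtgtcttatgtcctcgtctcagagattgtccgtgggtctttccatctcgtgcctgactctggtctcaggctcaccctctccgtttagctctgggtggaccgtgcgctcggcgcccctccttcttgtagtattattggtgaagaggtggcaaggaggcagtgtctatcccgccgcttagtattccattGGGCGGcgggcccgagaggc
They lie at chr14:31217623-31217872 (plus strand, Sema3g), chr10:94944846-94945095 (minus strand, Plxnc1), chr2:29248100-29248349 (minus strand, Ntng2) and chr3:95160170-95160419 (plus strand, Sema6c). The Plxnc1 start site of RefSeq lies outside the deposited transcript, which spans chr10:94790866-94944578 in mm10. The Plxnc1 promoter held 4 GC boxes and 22 CpG dinucleotides, Sema6c held 1 and 15, Sema3g held 1 and 8, and Ntng2 held 0 and 4, where the median of all promoters was 6 CpG. Of 68 promoters found for 52 guidance genes, 72.1% held a GC box, against 32.7% of all 32851 promoters, a set that includes genes not expressed in these samples. The forkhead motif TGTTTAC was in 0 of the 68 (3.17% of all promoters) and the homeobox motif TAATTA in 2.94% (4.84% of all), both strands searched, and neither was in the 4 promoters printed.

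More guidance genes differed with the name form of the library than in any group comparison. In the same edgeR fit, 10 of 61 genes (16.4%) differed between group-tag and S-number libraries at an adjusted p under 0.05, against 6.97% of all genes, and 30 (49.2%) at an unadjusted p under 0.05, against 25.3% of all genes. The labels mention 2 sequencing sites but not which libraries went to each, so the name form is only a form of name. Of the 10, the ligands Slit2, Sema4b, Sema4g, Efna3, Efna4 and Efna5 and the receptor Ephb2 were higher in group-tag libraries, while the ligand Ntn4 and the receptors Epha4 and Ephb1 were lower (5.65% of all genes were higher and 1.32% lower).

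Slit2, the secreted ligand of Robo receptors, had the largest log2 fold change, 1.31 ± 0.30 (edgeR, adjusted p = 0.0319). It had 85.1 and 131 CPM in the group-tag libraries of db/db puerarin, 91.2 and 161 CPM in those of db/db vehicle, and 137 and 105 CPM in those of db/m vehicle. The S-number libraries had 22.4 CPM in db/db puerarin, 64.8 and 60.2 CPM in db/db vehicle, and 82.6 and 34.4 CPM in db/m vehicle. All group-tag libraries were above all S-number libraries, as they were for Sema4g (13.05 to 24.1 against 4.87 to 12.01 CPM), Ephb2 (10.8 to 14.9 against 3.998 to 10.5 CPM) and Efna5 (7.83 to 11.6 against 4.09 to 7.13 CPM), and for Nrp2, which missed the test (adjusted p = 0.0557), they were below (88.5 to 151.97 against 166 to 218 CPM). These 5 genes were 8.20% of the 61, against 6.71% of all genes. Ntn4 had the smallest adjusted p, 0.0095 (edgeR), with a log2 fold change of -0.67 ± 0.11, and had 103 to 186 CPM in group-tag libraries against 173 to 288 CPM in S-number libraries. The other values were 1.11 for Sema4g, 1.01 for Ephb2, 0.85 for Efna5, 0.91 for Efna3, 1.15 for Efna4, 0.56 for Sema4b, -0.56 for Epha4 and -0.47 for Ephb1 on the log2 scale, with adjusted p from 0.0217 to 0.0476 (edgeR).

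Markers of the distal parts of the tubule also separated the name forms. The loop and distal tubule markers summed to 9474 to 18371 CPM in the 6 group-tag libraries and 3285 to 8721 CPM in the 5 S-number libraries, and the collecting duct markers (15 of 15 measured) to 677 to 1095 CPM in group-tag libraries and 207 to 526 CPM in S-number libraries. Neither pair of ranges overlapped. Proximal tubule markers overlapped, at 1723 to 8781 CPM in group-tag libraries and 3103 to 11864 CPM in S-number libraries, and 22 of 24 were lower in group-tag libraries (median log2 difference -0.43). Of glomerular endothelial markers 21 of 24 were lower in group-tag libraries, with 2 lower and 0 higher past the test. Of podocyte markers 24 of 30 were lower, with 1 lower and 1 higher past the test. Of mesangial markers 13 of 18 were lower, with 1 lower and 4 higher past the test. Over all genes, 1.32% were lower and 5.65% higher past the test. The part of these markers in the gene differences was examined only through the tubule level, the mean of the 3 tubule lists. That mean includes the proximal list, which went the other way. It overlapped between name forms (-0.22 to 1.01 in group-tag and -1.20 to 0.36 in S-number libraries). The part of the loop and distal or collecting duct level alone was not tested. With the tubule level as a further term, 6 of 61 guidance genes passed, against 9.09% of all genes. All of them were among the 10 (Sema4b, Sema4g, Slit2, Ephb2, Efna5 and Ntn4). Without db/db puerarin 2 and 3, which are group-tag libraries, 0 of 61 genes passed (0.59% of all genes) and 21 were at an unadjusted p under 0.05 (16.5% of all genes). With db/db puerarin S144 alone left out 0 passed, against 1.19% of all genes. Leaving out db/m vehicle S185 or 3 gave 1 gene (2% and 2.66% of all genes), and leaving out db/db vehicle S152 or 3 gave 2 (2% and 2.31%). It gave 4 genes without db/db vehicle S153 (3.5%), 5 without db/db puerarin 2 (4.88%), and 6 without db/db puerarin 3 (3.62%) or db/m vehicle 2 (4.42%). It gave 12 genes without db/m vehicle S184 (10.9% of all genes) and 24 without db/db vehicle 1 (13%).

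**Figure D4:**
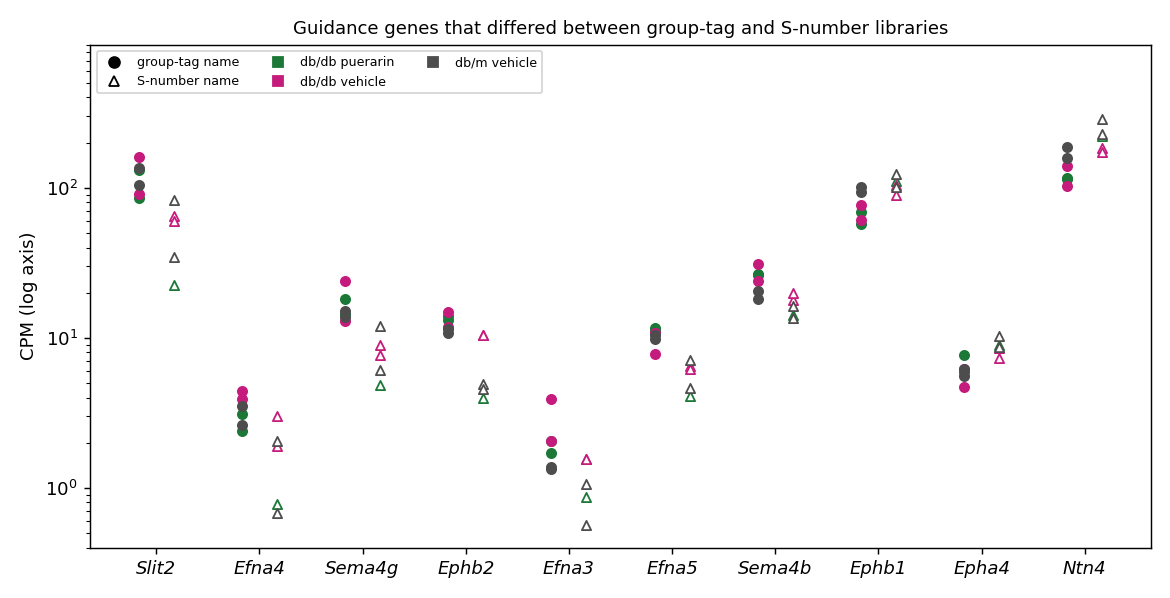
CPM (log axis) of the 10 guidance genes that differed between name forms at an adjusted p under 0.05, with group-tag libraries as filled circles left of S-number libraries as open triangles and colours for the 3 groups. For Slit2, Sema4g, Ephb2 and Efna5 all group-tag libraries lie above all S-number libraries.

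Other genes of the pathway were read from 3 lists. Measured were 29 guidance co-receptors and other cues (of 36 listed), 82 signal transducers (of 85) and 8 neuropilin-linked vascular endothelial growth factor genes (of 9). Of these, 0 passed in any of the 3 group comparisons (edgeR). Over all genes, 0.0437% passed in db/db vehicle against db/m vehicle. In db/db puerarin, 0% of all genes passed against db/db vehicle and 0.182% against db/m vehicle. In db/db vehicle against db/m vehicle the list medians were -0.03, -0.03 and -0.04 on the log2 scale, in db/db puerarin against db/db vehicle they were -0.06, 0.03 and 0.08, and in db/db puerarin against db/m vehicle they were -0.10, 0.01 and 0.01.

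Ablim3, an actin-binding protein of the family that acts downstream of netrin signalling in worms, came nearest to the threshold in these lists. It had 145, 155 and 159 CPM in db/db puerarin S144, 2 and 3, then 137, 108, 109 and 117 CPM in db/db vehicle S152, S153, 1 and 3, and 111, 110, 85.3 and 85.2 CPM in db/m vehicle S184, S185, 2 and 3. Every db/db puerarin library was above every library of the other groups. Over all genes, db/db puerarin did not overlap with db/db vehicle for 3.23% and with db/m vehicle for 7.65%, in either direction. The log2 fold change of db/db puerarin was 0.68 ± 0.12 against db/m vehicle (edgeR adjusted p = 0.0602) and 0.41 ± 0.12 against db/db vehicle (edgeR adjusted p = 0.967). Srgap3, a GTPase-activating protein that binds Robo receptors, differed by 0.74 ± 0.14 in db/db vehicle against db/m vehicle (edgeR adjusted p = 0.111) and by 0.62 ± 0.15 in db/db puerarin against db/m vehicle (edgeR adjusted p = 0.161), with overlap in both.

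Tiam1, an exchange factor for Rac that ephrin signalling can recruit, had 33.6, 31.0, 41.5 and 18.1 CPM in db/db vehicle S152, S153, 1 and 3, against 69.9, 88.5, 45.1 and 57.6 CPM in db/m vehicle S184, S185, 2 and 3. The groups did not overlap, and the log2 fold change was -1.05 ± 0.26 (edgeR adjusted p = 0.182). The repulsive cue Rgma had 3.80 to 5.57 CPM in db/db vehicle and 5.80 to 9.13 CPM in db/m vehicle (-0.48 ± 0.18, edgeR adjusted p = 0.379), and with 4.19 to 4.80 CPM it was also below the db/m range in db/db puerarin (-0.61 ± 0.19, edgeR adjusted p = 0.287). Cdon, a cell-surface protein that binds neogenin, differed by -0.48 ± 0.18 in db/db vehicle against db/m vehicle (edgeR adjusted p = 0.389). Gpc1, a glypican that binds Slits, differed by -0.51 ± 0.16 in db/db puerarin against db/m vehicle (edgeR adjusted p = 0.278). Both were without overlap. Groups did not overlap for 4.96% of all genes in db/db vehicle against db/m vehicle and for 7.65% in db/db puerarin against db/m vehicle. Genes of these lists were named for their small p-values, so a lack of overlap is not separate support.

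The growth factor genes that share the neuropilins did not pass either. Vegfd had 32.1, 22.5 and 24.0 CPM in db/db puerarin S144, 2 and 3, then 28.3, 16.5, 32.2 and 28.9 CPM in db/db vehicle S152, S153, 1 and 3, and 14.0, 15.7, 11.6 and 18.9 CPM in db/m vehicle S184, S185, 2 and 3. Against db/m vehicle its log2 fold change was 0.79 ± 0.24 in db/db puerarin (edgeR adjusted p = 0.265) and 0.81 ± 0.22 in db/db vehicle (edgeR adjusted p = 0.236). Vegfc differed by 0.58 ± 0.15 in db/db puerarin against db/m vehicle (edgeR adjusted p = 0.202) and by 0.30 ± 0.15 against db/db vehicle, and Pgf by -0.98 ± 0.31 in db/db vehicle against db/m vehicle (edgeR adjusted p = 0.303). Vegfa differed by 0.19 ± 0.10 in db/db puerarin against db/db vehicle. Lrig2 (0.18 ± 0.07), Adora2b (-0.53 ± 0.24) and Mical3 (0.26 ± 0.09) were the remaining genes with the smallest p in their lists in that comparison, all at an adjusted p of 0.967 (edgeR).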

How the data were processed

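Reads were processed with BWA and limma on mm10, per the submitters' processing notes. The sources used here do not state how reads were assigned or whether strand was used. The authors deposited whole-number counts for 22320 transcripts, and log2 values that equal the log2 of those counts plus a constant per library and were not used. Of 15 count columns, 4 could be tied to no sample and were left out. Blank cells (13) were set to 0, and 50 symbols turned into dates were restored from the transcript identifiers. Summing per symbol gave 13734 genes. Of the 61 guidance genes, 24 have several transcripts, and in 23 of them the highest pair agree within 10%. Shared reads may have been counted for each transcript or divided among them, so sums may count them repeatedly. If they were divided, levels per kilobase of the highest transcript are too low for these 24 genes.

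All 11 libraries entered 1 fit in edgeR 4.0.16 (R 4.3.3, TMM, glmQLFit, glmQLFTest) with group and name form as terms, 7 residual degrees of freedom, two-sided p-values and Benjamini-Hochberg adjustment over all genes. The filter, a count of at least 1 in 3 libraries, removed 0 genes. Alternatives used DESeq2 1.42.0, limma 3.58.1 (voom), other scalings, filters and terms, and left-out libraries. The named genes were up to 6 per direction and comparison with the smallest unadjusted p under 0.05, the highest of each family, and in other lists the 2 with the smallest p. Members and lists were chosen with earlier results of these data known. Exon overlaps are from GENCODE, and promoters from RefSeq (GRCm38.p6).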

Additional observations from a re-analysis of the deposited data

Results flagged for a closer look

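The 30 guidance genes chosen by the naming rule or called between name forms were checked in their db/db vehicle and db/m vehicle groups, and of these 60 sets of 4 libraries 2 held a library far from the other 3, where chance flags about 1 in 20. Sema4c, the ligand of Plxnb2, was at 97.9 CPM in db/m vehicle 3, and the other db/m libraries had 57.0 to 60.7 CPM. Unc5b, a netrin receptor of endothelium, was at 56.2 CPM in db/db vehicle 3, and the other db/db vehicle libraries had 92.1 to 97.9 CPM. The library db/db vehicle 3 also had the lowest summed glomerular endothelial level, 8874 CPM, whose part in the value of Unc5b was not tested.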

How the results depend on the processing

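No guidance gene passed for db/db puerarin against db/db vehicle under any alternative run. For db/db vehicle against db/m vehicle the count of 0 became 5 with DESeq2 (290 of 13734 genes in all, Plxnc1 and Efna3 higher, Ntng2, Sema6c and Ntn4 lower), 2 with the tubule level as a term (103 in all, Plxnc1 and Ntn4), and 0 to 1 when single libraries were left out (Plxnc1 without db/db vehicle 1, 82 in all). For db/db puerarin against db/m vehicle it became 1 with DESeq2 (297 in all) and 3 with the tubule term (363 in all, Plxnc1, Ntn4 and Ephb1). Of the groups compared, db/db puerarin and db/m vehicle share 2 numbers (2 and 3), and with a replicate block on those 4 libraries 5 genes passed (557 of 13732 in all, Ntng2, Sema6c, Ntn4, Ephb1 and Nrp1, all lower), against 0 without the block (284 in all). The numbers were not taken as pairs, since same-numbered libraries deviated from their groups with a correlation of 0.056. For the name form the count of 10 became 16 with DESeq2 (1885 in all), 6 with the tubule term (1249 in all), 0 without db/db puerarin 2 and 3 (81 in all), and 0 to 24 when single libraries were left out (163 to 1791 in all). Ephb1 for db/db puerarin against db/m vehicle was 0.0045 with S-number libraries alone, against -0.38 with all 11. Of 737 values of 33 fold changes under the alternatives, 641 kept direction and side of the threshold, 16 gained the call, 79 lost it and 1 turned. All 79 losses fell in the 10 name-form results, the only ones called in the main fit. Among these, Ntn4 lost the call in 2 of 19 alternatives, and Efna3, Efna4 and Ephb1 in 11 of 19 each. The other fold changes were uncalled in the main fit, so keeping their side meant only staying uncalled. The count of 641 does not measure how far their size moved. Beyond these changes in construction, the cause was not tested. The lowest count of a gene in a library was 25 (Efna3) and 30 (Efna4), where counting error adds to the spread, and the number of libraries and the unknown share of technical spread limit the precision.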
